A study of Mus musculus with 8 samples.

Results

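Hmgcs1, Sqle, Idi1, Fdps, Fdft1, Lss and Cyp51 encode 7 enzymes of the cholesterol synthesis pathway, and their transcripts were compared between livers of mice given AAV8-AGXT and livers of mice given AAV8-GFP. The genes were chosen by symbol as known targets of the transcription factor SREBP2, and each symbol was matched to its Ensembl identifier in the mouse annotation. They are 7 of the 52636 genes in each count table, and all 7 passed the filter on low counts that left 15248 genes for testing. None of the 7 differed between the groups in the main test, with a median log2 fold change of 0.28 (AAV8-AGXT over AAV8-GFP) and values from −0.23 for Hmgcs1 to 0.66 for Idi1.

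RNA sequencing was performed on livers of 8 male, wild-type C57BL/6J mice, 4 per group, with 1 library per mouse. Each mouse received an adeno-associated virus of serotype 8 at 7 weeks of age, which carried either green fluorescent protein (AAV8-GFP) or human AGXT (AAV8-AGXT), the enzyme that converts glyoxylate to glycine and so limits oxalate formation. Both transgenes were driven by the TBG promoter, which is active in hepatocytes, so the other liver cells were not targeted. All mice of both groups were fed a diet rich in fat, fructose and cholesterol (MASH diet) from 8 weeks of age for 24 weeks, and no group on a standard diet was among the samples, so every value below was obtained under cholesterol feeding. Mice are named by the numbers in the labels, and AAV8-GFP went to mice 303, 311, 314 and 315, whereas mice 308, 309, 316 and 319 received AAV8-AGXT.

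Cholesterol is made from acetyl-CoA through mevalonate, isoprenoid diphosphates, squalene and lanosterol. When sterols are scarce in the membrane of the endoplasmic reticulum, SCAP escorts the SREBP2 precursor to the Golgi, where it is cleaved, and the released fragment enters the nucleus and activates the genes of nearly every enzyme of the pathway together with genes for uptake of low-density lipoprotein (LDL). When sterols are plentiful, INSIG proteins hold SCAP in the endoplasmic reticulum and the same genes are turned down, as is known from livers of animals fed cholesterol.

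SREBP2 binds sterol regulatory elements (SREs), often near CCAAT boxes bound by NF-Y and GC boxes bound by Sp1. The bases upstream of the RefSeq transcription start of Hmgcs1 and of Idi1 (GRCm38.p6) are shown because these genes had the lowest and the highest fold change of the 7 and because they differ in the SRE letters they hold. Both lie on the plus strand of chromosome 13, Hmgcs1 at chr13:119690101-119690350 and Idi1 at chr13:8885356-8885605, and each run of 250 bases ends at the base before the start. The GENCODE model of Idi1 begins inside the run shown, at base 8885501. Capitals mark the SRE and the CCAAT boxes, the latter written ATTGG where they read on the opposite strand.
Hmgcs1: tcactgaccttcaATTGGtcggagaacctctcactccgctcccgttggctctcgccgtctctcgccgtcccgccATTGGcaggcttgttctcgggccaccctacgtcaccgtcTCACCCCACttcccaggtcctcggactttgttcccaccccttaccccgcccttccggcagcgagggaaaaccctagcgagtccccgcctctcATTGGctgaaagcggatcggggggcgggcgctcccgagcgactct
Idi1: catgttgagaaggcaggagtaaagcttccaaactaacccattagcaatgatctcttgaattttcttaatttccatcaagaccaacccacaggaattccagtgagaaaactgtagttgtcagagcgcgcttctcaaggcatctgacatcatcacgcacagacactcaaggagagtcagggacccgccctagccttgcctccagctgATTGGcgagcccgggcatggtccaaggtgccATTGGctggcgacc

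RefSeq promoter windows of 300 bases, which add 50 bases past the start, were matched for 4 of the 7 genes, namely Hmgcs1, Idi1, Lss and Cyp51. The SRE letters TCACNCCAC, searched on both strands, occurred once, as TCACCCCAC on the coding strand of Hmgcs1 with its first base at position −137. They occurred in 1.24% of the 32851 windows of all genes, and the windows of Idi1, Lss and Cyp51 did not hold them. The shorter core CACNCCA, which lies inside the SRE letters, was likewise found in Hmgcs1 alone among the 4 and in 18.4% of all windows. All 4 windows held at least 1 CCAAT box, with 4 in Hmgcs1, 2 in Idi1 and 1 each in Lss and Cyp51, against 37.4% of all windows with any. The GC box letters GGGCGG were also in all 4 windows, with 3 in Hmgcs1, 2 in Lss and 1 each in Idi1 and Cyp51, against 35.7% of all windows. These letter matches describe the sequence and were not tested for binding.

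Read pairs assigned to genes numbered 17095433 in the shallowest library and 28780140 in the deepest. Mouse 308 had the lowest share of tallied pairs on genes at 56.3%, while the other mice ranged from 62.4% to 69.1%. A group difference in this share did not pass 0.05 by an exact two-sided permutation test of the 4 against 4 mice (p = 0.086, where 0.0286 is the smallest possible). The share of pairs not aligned was 1.324% to 3.797% in AAV8-GFP mice and 3.775% to 6.049% in AAV8-AGXT mice (p = 0.057, same permutation test). Mouse Agxt stood at 148, 180, 153 and 175 CPM (counts scaled to a library size of 1e+06 with TMM factors) in AAV8-GFP mice 303, 311, 314 and 315 and at 405, 201, 243 and 371 CPM in AAV8-AGXT mice 308, 309, 316 and 319, with a log2 fold change of 0.90 ± 0.22 (SE) and an adjusted p of 0.0489 (edgeR quasi-likelihood test), a call that was lost when any mouse but 309 was left out (adjusted p from 0.053 to 0.146). The tables list mouse genes and the transgene is human, so this row measures the endogenous gene plus any read of the transgene that mapped to it, and these were not told apart. The hepatocyte markers Alb, Ttr, Apoa1, Apoh, Serpina1c, Hnf4a, Cps1 and Tat were detected in all livers, with summed levels of 44886 to 54206 CPM in AAV8-GFP mice and 55146 to 77508 CPM in AAV8-AGXT mice. In whole liver, fewer cells of a type and less RNA per cell cannot be told apart.

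Across all 15248 genes, the edgeR test called 664 genes at an adjusted p under 0.05, of which 374 were higher and 290 lower in AAV8-AGXT livers, that is 4.35% of the genes tested. Of the 7 synthesis genes it called 0, with 1 (Idi1) at an unadjusted p under 0.05 against 26.2% of all genes, and DESeq2 also called 0 against 14.0% of all genes. The values of the groups overlapped for each of the 7, whereas 16.6% of all genes had groups that did not overlap. The count over all genes depended on which mouse was left out. It was 2 without mouse 311, 15 without mouse 314, 14 without mouse 319, 177 without mouse 308, 193 without mouse 303 and 411 without mouse 316. Without mouse 315 it was 629 and without mouse 309 it was 643. Each of these fits also had fewer mice than the main test, and the part of this in the lost calls was not tested. The count among the 7 was 0 in each of these fits, as it was in the main test.

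**Figure D1:**
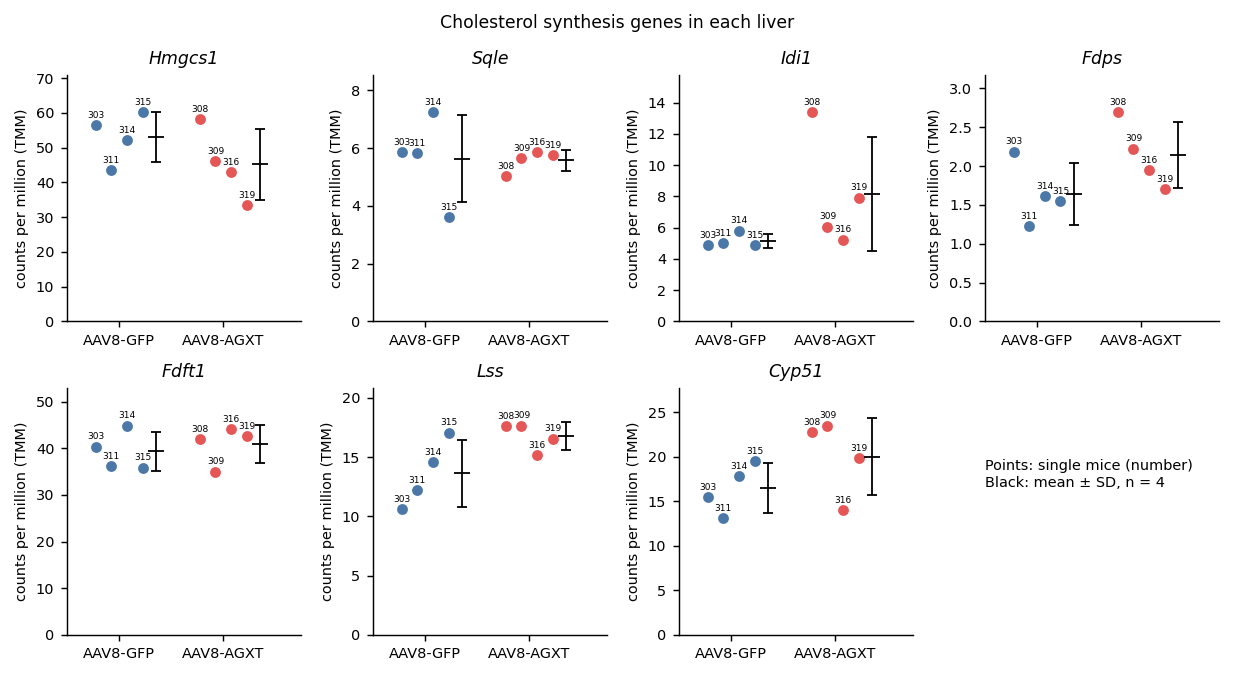
TMM-scaled CPM (vertical axis, starting at 0) of the 7 genes in each liver, by group, with mouse numbers beside the points and the mean ± SD (n = 4) in black. The groups overlap in every panel, and mouse 308 stands above the other mice for Idi1, at 13.4 CPM.

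Levels of different genes were set against each other only per kilobase of the principal transcript. In AAV8-GFP livers Hmgcs1 stood at 15.3 ± 2.07 CPM per kilobase (SD, n = 4) and Fdft1 at 10.6 ± 1.15. Cyp51 followed at 4.19 ± 0.71, Lss at 2.92 ± 0.60, Sqle at 2.04 ± 0.54, Idi1 at 1.70 ± 0.15 and Fdps at 1.19 ± 0.29 CPM per kilobase. Neighbours in this order from Cyp51 down to Idi1 lay within their summed SDs, whereas the gaps from Hmgcs1 to Fdft1, from Fdft1 to Cyp51 and from Idi1 to Fdps were wider. In AAV8-AGXT livers the levels per kilobase were 13.1 ± 2.93 for Hmgcs1, 11.1 ± 1.10 for Fdft1, 5.09 ± 1.09 for Cyp51, 3.59 ± 0.25 for Lss, 2.69 ± 1.21 for Idi1, 2.02 ± 0.13 for Sqle and 1.55 ± 0.31 for Fdps (SD, n = 4 each). Idi1 and Sqle thus changed places, with a difference smaller than the SD of Idi1.

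Hmgcs1 encodes the cytosolic HMG-CoA synthase, which condenses acetoacetyl-CoA and acetyl-CoA at the entry of the mevalonate pathway (ENSMUSG00000093930, GRCm38, chr13:119690379-119708260, plus strand). It stood at 56.4, 43.5, 52.2 and 60.2 CPM in AAV8-GFP mice 303, 311, 314 and 315, and at 58.2, 46.0, 43.0 and 33.6 CPM in AAV8-AGXT mice 308, 309, 316 and 319. The lowest value was in an AAV8-AGXT mouse and the highest in an AAV8-GFP mouse, but mouse 308 lay among the highest AAV8-GFP values. AAV8-AGXT over AAV8-GFP gave a log2 fold change of −0.23 ± 0.17 (SE), with a 95% interval from −0.60 to 0.14 and an adjusted p of 0.400 (edgeR). Hmgcs1 shares 12.1% of its exon bases with the antisense gene Gm48342, and the strand setting of the counting was not given in the sources used here.

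Idi1 encodes the isomerase that interconverts isopentenyl and dimethylallyl diphosphate, the C5 units of all isoprenoids (ENSMUSG00000058258, GRCm38, chr13:8885501-8892451, plus strand). It stood at 4.88, 5.02, 5.81 and 4.90 CPM in AAV8-GFP mice 303, 311, 314 and 315, and at 13.4, 6.07, 5.24 and 7.93 CPM in AAV8-AGXT mice 308, 309, 316 and 319. Mice 308, 309 and 319 lay above all AAV8-GFP mice, while mouse 316 lay below mouse 314. The log2 fold change of 0.66 ± 0.27 (SE, 95% interval 0.05 to 1.27) had an unadjusted p of 0.037 and an adjusted p of 0.163 (edgeR), which did not pass the threshold. Without mouse 308 the log2 fold change was 0.30 (adjusted p = 0.374). Mouse 308 was also the mouse with the lowest share of pairs on genes and the lowest TMM factor (0.830), and the part of these in its Idi1 level was not tested. The paralog Idi2 lies downstream on the same chromosome and had 0 counts in all 8 livers.

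Fdps encodes farnesyl diphosphate synthase, which adds C5 units to form the precursor shared by sterols, dolichol, ubiquinone and prenylated proteins (ENSMUSG00000059743, GRCm38, chr3:89093588-89101959, minus strand). It was the scarcest of the 7, with 35 to 56 counts per mouse. It stood at 2.19, 1.22, 1.61 and 1.54 CPM in AAV8-GFP mice 303, 311, 314 and 315 and at 2.69, 2.22, 1.95 and 1.70 CPM in AAV8-AGXT mice 308, 309, 316 and 319. Apart from mouse 303, each AAV8-GFP mouse lay below each AAV8-AGXT mouse. Its log2 fold change was 0.38 ± 0.26 (SE), with a 95% interval from −0.19 to 0.95 and an adjusted p of 0.377 (edgeR). The gene shares 26.7% of its exon bases with Gm43738, a protein-coding model on the same strand that had between 0 and 2 counts per mouse, and pairs falling on the shared bases may have been left out as ambiguous.

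Fdft1 encodes squalene synthase, the first step committed to sterols (ENSMUSG00000021273, GRCm38, chr14:63145150-63179578, minus strand). It stood at 40.4, 36.1, 44.9 and 35.9 CPM in AAV8-GFP mice and at 42.0, 35.0, 44.1 and 42.7 CPM in AAV8-AGXT mice, in the same mouse order as above. The ranges nearly coincided, with the highest value in mouse 314 and the lowest in mouse 309. Its log2 fold change of 0.06 ± 0.11 (SE) had a 95% interval from −0.19 to 0.31, the narrowest of the 7, and an adjusted p of 0.778 (edgeR). The direction was negative when libraries were scaled to their totals (−0.18) or upper quartiles (−0.0064). Fdft1 shares 18.3% of its exon bases with Ctsb on the opposite strand, an abundant gene at 904 ± 119 CPM in livers given AAV8-GFP and 720 ± 128 CPM in the others (SD, n = 4 each).

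Sqle encodes squalene epoxidase, a rate-limiting oxygenase of the sterol branch (ENSMUSG00000022351, GRCm38, chr15:59315077-59331192, plus strand), and its exons overlap no other annotated gene. It stood at 5.86, 5.82, 7.24 and 3.62 CPM in AAV8-GFP mice 303, 311, 314 and 315 and at 5.04, 5.65, 5.85 and 5.76 CPM in AAV8-AGXT mice 308, 309, 316 and 319. Both the highest and the lowest value were in AAV8-GFP mice. The coefficient of variation was 26.6% in AAV8-GFP and 6.58% in AAV8-AGXT livers. The log2 fold change was −0.01 ± 0.21 (SE), with a 95% interval from −0.48 to 0.45 and an adjusted p of 0.977 (edgeR), and its sign depended on the fit (0.030 in limma-voom).

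Lss encodes lanosterol synthase, which closes the sterol rings (ENSMUSG00000033105, GRCm38, chr10:76531588-76557138, plus strand). It stood at 10.6, 12.2, 14.6 and 17.1 CPM in AAV8-GFP mice 303, 311, 314 and 315 and at 17.6, 17.7, 15.2 and 16.6 CPM in AAV8-AGXT mice 308, 309, 316 and 319. The AAV8-AGXT mice all lay in the upper portion of the AAV8-GFP range or above it. A log2 fold change of 0.30 ± 0.15 (SE) was obtained, with a 95% interval from −0.04 to 0.64 and an adjusted p of 0.248 (edgeR).

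Cyp51 encodes lanosterol 14-alpha-demethylase, the cytochrome P450 that opens the conversion of lanosterol to cholesterol (ENSMUSG00000001467, GRCm38, chr5:4081145-4104746, minus strand). It stood at 15.5, 13.1, 17.8 and 19.5 CPM in AAV8-GFP mice 303, 311, 314 and 315 and at 22.7, 23.5, 14.0 and 19.8 CPM in AAV8-AGXT mice 308, 309, 316 and 319. Mice 308, 309 and 319 lay above all AAV8-GFP mice, and mouse 316 lay below all but mouse 311. The log2 fold change was 0.28 ± 0.18 (SE), with a 95% interval from −0.13 to 0.69 and an adjusted p of 0.355 (edgeR).

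The upper bounds of the 95% intervals correspond to folds of 1.10 for Hmgcs1, 1.24 for Fdft1, 1.37 for Sqle, 1.56 for Lss, 1.61 for Cyp51, 1.93 for Fdps and 2.41 for Idi1. The lower bounds correspond to folds from 0.659 for Hmgcs1 to 1.03 for Idi1. A change of 2-fold in either direction thus lay outside the interval for each of the 7 except Idi1. Summed over the 7 genes, the AAV8-GFP livers held 117 to 144 CPM and the AAV8-AGXT livers 128 to 162 CPM, and the highest sum was in mouse 308.

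The size of the median over the 7 depended on the scaling, while its sign did not. The median log2 fold change of all genes was 0.018 with TMM factors and −0.22 with libraries scaled to their totals, and the median of the 7 was 0.28 and 0.04 respectively. Relative to all genes, the median of the 7 was 0.26 higher in both. Leaving out each mouse in turn gave medians of the 7 from 0.17 to 0.35.

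**Figure D2:**
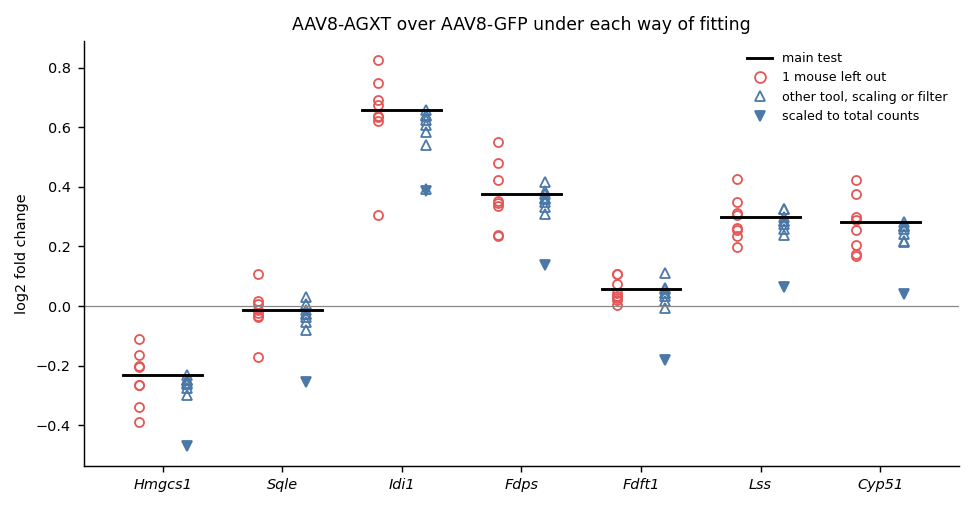
Log2 fold changes of the 7 genes (vertical axis) in the main edgeR test (black line), with each of the 8 mice left out in turn (circles) and under other tools, scalings and filters (triangles, filled for scaling to total counts). Idi1 falls from 0.66 to 0.30 without mouse 308, and scaling to total counts gives the lowest value for Hmgcs1, Sqle, Fdps, Fdft1, Lss and Cyp51.

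The 7 genes did not share 1 pattern across the mice. Over the 21 pairs of genes, Pearson's r of log2 CPM across the 8 mice ranged from −0.40 for Hmgcs1 with Sqle to 0.77 for Lss with Cyp51, with a median of 0.17, and 12 of the 21 were above 0. These correlations are descriptions over 8 libraries that share a scaling, 4 mice of each treatment. Idi1, Fdps and Cyp51 correlated with each other at 0.55 to 0.62, and Idi1 with Lss at 0.53. Sqle and Fdft1, adjacent to each other in the pathway, had an r of 0.53, whereas Sqle was negatively correlated with Lss (−0.39) and Cyp51 (−0.29), which follow it. Mouse 308 was among the 3 highest mice for 5 of the 7 genes and mouse 311 for 0 of them.

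The mean standardized profile of the 7 genes was lowest in mouse 311 (−0.87) and highest in mouse 308 (0.96). The 10 genes most like this profile by Pearson's r over the 8 mice, out of all tested genes that were not in the set, were Gk (0.95), Aff4 (0.94), Hint3 (0.94), Rsph3a (0.94), Slc25a46 (0.93), Nr2f2 (0.93), Gm20604 (0.93), Paxip1 (0.93), Slc39a9 (0.93) and N4bp2l2 (0.93). Gk encodes glycerol kinase and stood at 104, 77.0, 126 and 89.3 CPM in AAV8-GFP mice and at 178, 128, 128 and 135 CPM in AAV8-AGXT mice. Msmo1, a sterol demethylation enzyme, was the nearest gene of the pathway, with an r of 0.91 and rank 19. With values centred within each group, 3 of the 10 genes were still among the nearest 10.

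The 14 other enzymes of the pathway contained 1 that rose in AAV8-AGXT livers and 0 that fell, beside 2.45% of all genes that rose, and their median log2 fold change was 0.35 against 0.018 over all genes. Hsd17b7 encodes the 3-ketosteroid reductase that acts in sterol demethylation. It stood at 18.1, 11.7, 13.8 and 11.6 CPM in AAV8-GFP mice 303, 311, 314 and 315 and at 33.1, 27.7, 28.2 and 24.6 CPM in AAV8-AGXT mice 308, 309, 316 and 319. The groups did not overlap, and the log2 fold change was 1.04 ± 0.16 (SE), with an adjusted p of 0.0248 (edgeR). The call was lost without mouse 311 (adjusted p = 0.115), mouse 314 (0.080) or mouse 319 (0.070), with log2 fold changes from 0.95 to 1.20 over all mice left out in turn.

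Tm7sf2, one of the sterol C14-reductases, stood at 31.6, 28.4, 28.2 and 37.4 CPM in AAV8-GFP mice and at 68.5, 41.2, 39.2 and 48.1 CPM in AAV8-AGXT mice. These groups did not overlap either, with a log2 fold change of 0.65 ± 0.18 (SE) and an adjusted p of 0.069 in edgeR and 0.016 in DESeq2. Msmo1 stood at 12.5, 11.6, 15.4 and 14.6 CPM in AAV8-GFP mice and at 28.0, 16.3, 15.9 and 17.5 CPM in AAV8-AGXT mice, with a log2 fold change of 0.52 ± 0.19 (SE) and an adjusted p of 0.129 (edgeR). Mouse 308 was again the highest for both.

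Ebp, the sterol isomerase, had a log2 fold change of 0.39 ± 0.13 (SE, adjusted p = 0.103 in edgeR and 0.045 in DESeq2). Mvk, mevalonate kinase, had 0.42 ± 0.20 (adjusted p = 0.213), and its groups did not overlap. The remaining steps shown in the plot of the pathway lay nearer to 0 and were not called, with the lowest value at −0.18 for Nsdhl, a sterol C4-decarboxylating dehydrogenase.

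**Figure D3:**
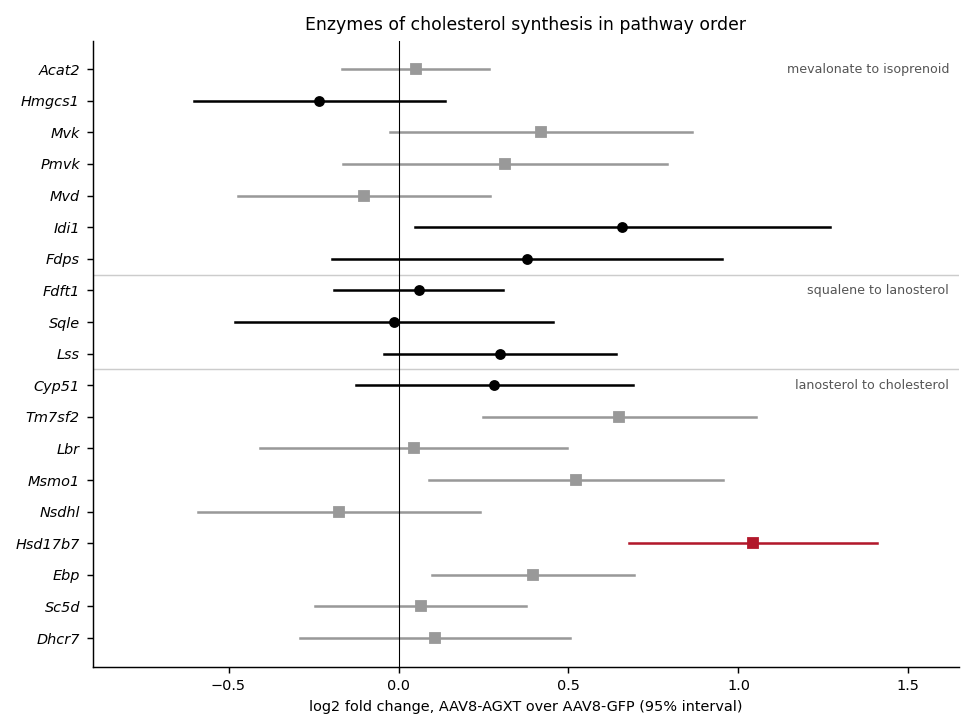
Log2 fold changes (horizontal axis, AAV8-AGXT over AAV8-GFP, with 95% intervals of the edgeR fit) of 19 synthesis enzymes in pathway order, with the 7 genes as black circles and 12 of the 14 other enzymes as squares. Hsd17b7, in red at 1.04, is the enzyme called among those drawn, and the interval of Idi1 is the widest of the 7.

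The pathway sends isoprenoids to other products before squalene. Of 11 genes of these branches, which serve ubiquinone, dolichol and protein prenylation, edgeR called 0, beside 4.35% of all genes. At an unadjusted p under 0.05 was 1 of them (Icmt), beside 26.2% of all genes. DESeq2 called 0, beside 14.0% of all genes, and the median log2 fold change of the 11 was 0.09. Icmt, which methylates prenylated proteins, stood between 35.3 and 42.3 CPM in AAV8-GFP mice, against 43.4 to 53.5 CPM in those given AAV8-AGXT (log2 fold change 0.31 ± 0.10 SE, adjusted p = 0.097). Fntb, the beta subunit of farnesyltransferase, had a log2 fold change of −0.31 ± 0.16 (SE, adjusted p = 0.238).

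Of 12 genes that process SREBP2 or sense sterols, 1 rose and 0 fell, beside 2.45% of all genes that rose, with a median log2 fold change of 0.07. Scap, the escort protein of the SREBP precursors, stood at 96.3, 78.5, 78.4 and 92.3 CPM in AAV8-GFP mice and at 157, 110, 117 and 138 CPM in AAV8-AGXT mice, with no overlap. Its log2 fold change was 0.60 ± 0.14 (SE, adjusted p = 0.0450 in edgeR), and 1 of the 8 fits that left out a mouse kept it under the threshold, the one without mouse 309, with adjusted p up to 0.157 without mouse 311. With scaling to total counts the adjusted p was 0.063. The exons of Scap share 13.2% of their bases with an unclassified model on the opposite strand.

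Srebf2, which encodes SREBP2 itself, stood at 34.5, 33.9, 40.5 and 37.5 CPM in AAV8-GFP mice and at 33.6, 35.1, 31.7 and 47.1 CPM in AAV8-AGXT mice. The groups overlapped, with a log2 fold change of 0.01 ± 0.14 (SE, 95% interval −0.29 to 0.31). Insig1, a retention protein and itself an SREBP target, ranged from 21.2 to 87.1 CPM within the AAV8-GFP mice and from 42.6 to 71.0 CPM in AAV8-AGXT mice, so its log2 fold change of 0.23 ± 0.40 (SE) was well within the spread. Insig2 had 0.10 ± 0.22 (SE). Transcript levels do not measure cleavage of SREBP2, and no protein was measured in these files.

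Rnf145, a ubiquitin ligase that acts on sterol sensors, stood between 44.8 and 61.5 CPM in AAV8-GFP mice, against 37.8 to 40.5 CPM in those given AAV8-AGXT (log2 fold change −0.38 ± 0.11 SE, adjusted p = 0.073 in edgeR and 0.021 in DESeq2). Its groups did not overlap.

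Of 12 genes for LDL receptor control, lipoprotein uptake and lysosomal release of cholesterol, 11 were tested, 1 rose and 0 fell, beside 2.45% of all genes that rose, with a median log2 fold change of 0.21. Npc1, which moves cholesterol out of late endosomes and lysosomes, stood at 104, 80.3, 91.2 and 111 CPM in AAV8-GFP mice and at 160, 141, 143 and 124 CPM in AAV8-AGXT mice. The difference gave a log2 fold change of 0.55 ± 0.13 (SE, adjusted p = 0.0461), and of the 8 fits that left out a mouse the one without mouse 315 kept the call, with adjusted p up to 0.153 without mouse 311. With scaling to total counts its log2 fold change was 0.32 (adjusted p = 0.103). Its partner Npc2 had a log2 fold change of −0.19 ± 0.16 (SE, adjusted p = 0.460), Lrp1 0.27 ± 0.15 (adjusted p = 0.288) and the ligase Mylip, which degrades the LDL receptor protein, 0.21 ± 0.19 (adjusted p = 0.508).

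Of 13 SREBP targets outside the synthesis chain, 1 rose and 0 fell, beside 2.45% of all genes that rose, with a median log2 fold change of 0.15. DESeq2 called 3 of them higher and 2 lower, beside 14.0% of all genes called in either direction. Acss2, the cytosolic acetyl-CoA synthetase, stood at 38.0, 37.9, 39.0 and 34.8 CPM in AAV8-GFP mice and at 52.2, 51.8, 50.8 and 51.0 CPM in AAV8-AGXT mice, with a narrow spread in both groups. Its log2 fold change was 0.46 ± 0.08 (SE, adjusted p = 0.0292), and the call was lost without mice 308, 311, 314 or 319 (adjusted p up to 0.126) and with scaling to total counts (0.22, adjusted p = 0.167). The fatty acid synthesis genes Fasn and Acaca had negative log2 fold changes of −0.59 ± 0.17 and −0.35 ± 0.09 (SE, adjusted p = 0.073 and 0.067 in edgeR, 0.010 and 0.0058 in DESeq2), and Fads2, the delta-6 desaturase, had 0.68 ± 0.19 (adjusted p = 0.068 in edgeR and 0.010 in DESeq2).

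Of 13 genes for esterification, export and conversion of cholesterol, 12 were tested, 1 rose and 0 fell, beside 2.45% of all genes that rose, with a median log2 fold change of 0.34. Cyp7b1, the oxysterol 7-alpha-hydroxylase, stood at 131, 76.7, 34.8 and 120 CPM in AAV8-GFP mice and at 376, 290, 183 and 333 CPM in AAV8-AGXT mice. The difference gave a log2 fold change of 1.71 ± 0.38 (SE, adjusted p = 0.0425), and 2 of the 8 fits that left out a mouse, those without mice 316 and 315, kept the call, with adjusted p up to 0.149 without mouse 311. Cyp8b1 had a log2 fold change of 1.52 ± 0.48 (SE, adjusted p = 0.088), Cyp7a1, the rate-limiting enzyme of bile acid synthesis, 0.96 ± 0.63 (adjusted p = 0.364), and Soat2, which esterifies cholesterol in hepatocytes, −0.46 ± 0.16 (adjusted p = 0.106 in edgeR and 0.049 in DESeq2).

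**Figure D4:**
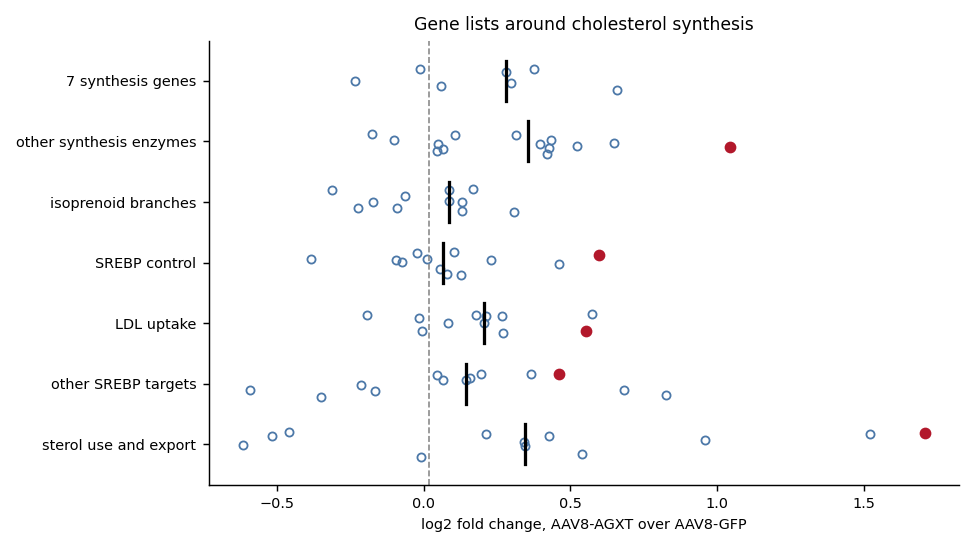
Log2 fold changes (horizontal axis) of every tested gene in the 7 lists around cholesterol synthesis, with genes called by edgeR filled in red, list medians as black bars and the median of all genes as the dashed line. Each list but the isoprenoid branches and the 7 synthesis genes themselves holds 1 called gene, and the list medians lie between 0.07 and 0.35.

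Other gene groups moved between the same livers, and their part in the values above was not tested. Of 6 genes of cycling cells 3 fell (Mki67, Cdk1 and Ccnb1), beside 290 of the 15248 genes tested that fell. Summed levels of the 6 were 22.3 to 37.6 CPM in AAV8-GFP mice against 4.69 to 13.5 CPM in livers given AAV8-AGXT. Markers of pericentral hepatocytes rose in 3 of 8 (Oat, Slc1a2 and Cyp2e1), beside 2.45% of all genes that rose, with summed levels of 8207 to 10042 and 16283 to 21136 CPM. Of 8 periportal markers 1 rose (Arg1), with 1638 to 2566 and 2322 to 2980 CPM, and of the 8 hepatocyte markers 1 rose (Cps1), beside the same 2.45%.

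Of 14 circadian clock genes 4 rose (Cry2, Tef, Hlf and Ciart) and 0 fell in edgeR, beside 2.45% of all genes that rose, with summed levels of 313 to 575 CPM in AAV8-GFP mice against 668 to 817 CPM in livers given AAV8-AGXT. DESeq2 called 7 of the 14 higher and 3 lower (Arntl, Npas2 and Cry1), beside 14.0% of all genes called in either direction. The groups of these 3 lower genes did not overlap, which was also so for 16.6% of all genes. Cholesterol synthesis genes in liver are known to follow the time of day and feeding, and the labels give no time of collection. Of 11 genes that follow feeding or fasting edgeR called 0, with 3 at an unadjusted p under 0.05 beside 26.2% of all genes, and DESeq2 called 2 lower beside 14.0% of all genes called.

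Median log2 fold changes of the markers of other cell types were −0.67 for stellate cells, −0.27 for macrophages, 0.25 for endothelium, −1.24 for bile duct cells and −0.67 for lymphocytes. The macrophage markers went in both directions, 5 positive and 6 negative, from −1.42 for Trem2 to 3.63 for Marco. Marco stood at 156 CPM in mouse 319, against 5.94, 12.4 and 10.4 CPM in AAV8-AGXT mice 308, 309 and 316. In AAV8-GFP mice it ranged from 0.55 to 5.65 CPM. Of 9 stellate cell markers 1 fell (Acta2), beside 290 of the 15248 genes tested that fell. Summed levels of the 9 were 559 to 982 CPM in AAV8-GFP mice against 258 to 642 CPM in livers given AAV8-AGXT. Among 11 macrophage, 7 endothelial, 6 bile duct and 8 tested lymphocyte markers edgeR called 0, beside 4.35% of all genes. At an unadjusted p under 0.05 were 5, 0, 5 and 2 of them, beside 26.2% of all genes. DESeq2 called 4 (1 higher and 3 lower), 0, 4 (all lower) and 2 (all lower), beside 14.0% of all genes. Summed levels of these markers in AAV8-GFP and AAV8-AGXT mice were 549.6 to 954 and 237 to 839 CPM for macrophages, 151 to 234 and 157 to 323 CPM for endothelium, 225 to 676 and 74.3 to 274 CPM for bile duct cells and 14.3 to 21.2 and 7.25 to 15.3 CPM for lymphocytes, and no marker in any list was at 0 in all livers.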

How the data were processed

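Liver RNA of 4 AAV8-GFP and 4 AAV8-AGXT mice was sequenced as stranded mRNA libraries. Per the labels and the methods of the study, the authors trimmed reads with Trimmomatic 0.35 after FastQC 0.11.8, aligned them with HISAT2 2.1.0.13 (GRCm38) and made gene counts with HTSeq. The deposited values are raw counts per gene without normalization. Tallies that name no gene made up 30.9% to 43.7% of each table and were left out of library sizes and tests.

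Here, counts were tested in R 4.3.3 with edgeR 4.0.16 (filterByExpr, TMM factors, quasi-likelihood test, treatment as the only term, Benjamini-Hochberg adjustment over 15248 genes, threshold 0.05), and the script was checked on simulated counts. Log2 fold changes use a prior count of 0.125, and levels are TMM-scaled CPM. The p-values measure the spread among 4 mice per group, each a separate animal, and the common biological coefficient of variation was 23.3%. Alternatives were DESeq2 1.42.0, limma 3.58.1 (voom, with and without quality weights), robust edgeR, other size factors, other filters and each mouse left out. Symbols, exons and principal transcript lengths came from GENCODE M21 (GRCm38), and promoter windows from RefSeq (GRCm38.p6).

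The members and lists were chosen with earlier results of these data known, and some listed genes count in their lists but are not reported here singly. Genes named are the 7 members, the paralog Idi2, Agxt, called list genes with up to 4 more of large change, and the 10 genes most like the members' mean profile. Npc2, Lrp1, Mylip, Srebf2 and Insig2 were named for their roles, and Arntl, Npas2 and Cry1 for their DESeq2 calls, after their values were seen.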

Additional observations from a re-analysis of the deposited data

Results flagged for a closer look

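In 14 groups of 4 mice, that is each of the 7 genes in each treatment, Dixon's test marked 1 value, about the number that chance gives at 1 in 20 groups. Idi1 in AAV8-GFP mouse 314, at 5.81 CPM, stood apart from the other AAV8-GFP mice, which were at 4.88, 4.90 and 5.02 CPM. The high value of mouse 308 in the AAV8-AGXT group (13.4 CPM) did not pass the same test because that group was spread more widely.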

How the results depend on the processing

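The 7 genes were called in 0 of 17 alternatives. Sqle turned positive in limma-voom (0.030), with quality weights (0.0081) and in the fits without mouse 303 (0.0072), 308 (0.016) or 314 (0.11). It stayed negative in the other fits that left out a mouse, down to −0.17 without mouse 315. Fdft1 turned negative with upper-quartile factors (−0.0064) and total counts (−0.18). The cause was not tested. The calls over all genes went from 664 to 2131 in DESeq2, 1410 in limma with quality weights and 1001 with total counts (144 higher and 857 lower, against 374 and 290), and from 2 to 643 with a mouse left out. Of the 14 other synthesis enzymes, 3 were called in DESeq2, beside 14.0% of all genes. Limma with quality weights called 2, beside 1410 of 15248 genes. Without the low-count filter 2 were called, beside 846 of 28338 genes, and with a mouse left out 0 to 1. Of the 10 most alike genes, 3 were kept with values centred within groups. Of 188 comparisons with an alternative, 165 kept their direction and side of the threshold, or for a count stayed within 1.5 times the main one, or for the median over the 7 moved by less than the spread between mice. That median went from 0.28 to 0.04 with total counts. Fdps had the fewest counts of the 7, 35 to 56 per mouse, and its SE (0.26) was below that of Idi1 (0.27), at 101 to 194 counts. No paired analysis was possible because the groups share no mouse numbers.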
